A study of Mus musculus with 20 samples.

Results

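The replication-dependent histone genes of mouse chromosome 13 lie in 2 parts of the cluster known as Hist1, and the regions described here are the peaks that fell in them. A peak was a member if at least 1 bp of it lay in mm9 chr13:21800000-22140000 (window 1) or in mm9 chr13:23600000-23870000 (window 2). By this rule 868 of the 270514 peaks of all 16 deposited lists were members, against 11388 peaks on the rest of chromosome 13. The windows made up 0.521% of the chromosome's span between its first and last peak and held 7.08% of its peaks. All lists came from CD4+/CD8+ double-positive T cells of the thymus of C57BL/6 mice, with no treatment or mutation named in the labels, so the comparison throughout is between regions of 1 genome and not between animals.

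Chromatin immunoprecipitation with sequencing gave 15 lists, for total Pol II, TBP, Taf1, TFIIA, TFIIB, TFIIE, TFIIF, TFIIH, the serine 5 (Ser5P) and serine 2 (Ser2P) phosphorylated forms of the Pol II tail, H3K4me3, H3K4me1, H3K36me3, CBP and ETS1. FAIRE, which recovers open chromatin without an antibody, gave the other list. With a single list for each target, neither a replicate error nor a p-value could be given, and the read depth behind a list is unknown. The 4 samples of input, rabbit IG, poly(A) RNA and total RNA were not analysed here.

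Replication-dependent histone genes encode the H1, H2A, H2B, H3 and H4 proteins that package newly made DNA, and they are transcribed mainly in S phase. They are short, have no introns, occur in many near-identical copies, and their messages end in a stem-loop in place of a poly(A) tail. At a typical promoter TBP binds first, TFIIA and TFIIB join it, Pol II enters with TFIIF, and TFIIE recruits TFIIH, whose kinase places Ser5P, while Ser2P and H3K36me3 build up over the bodies of genes that are being elongated.

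The RefSeq gene table given for mouse belongs to a later build than the peak lists, so it was used for names and neighbours, no peak was assigned to a gene, and the name of the cluster rests on the rule. It lists 53 protein-coding histone genes on chromosome 13 under the symbols H1f, H2ac, H2bc, H3c and H4c, namely 6 for H1, 13 for H2A, 14 for H2B, 9 for H3 and 11 for H4. These genes were picked by symbol, and whether each is replication-dependent was not checked. They form 2 runs, one of 22 genes between H2bc13 and H2bc11 and one of 31 genes between H4c8 and H2ac1. An H2A gene and an H2B gene are direct neighbours in 6 places of the run from H2bc13 and in 5 places of the run from H4c8. The runs differ in their other genes. The run from H2bc13 to H2bc11 contains 31 tRNA genes, which all lie in the break of 40 other genes between H2ac24 and H2ac12, and the run from H4c8 to H2ac1 contains 0. A stretch of 147 other genes separates the runs, with 46 tRNA genes and 75 Vmn1r genes, which encode vomeronasal receptors.

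RefSeq promoter sequences (GRCm38.p6) were found for 50 of the 53 genes, and 1 promoter of each histone class is shown with 2 of the motifs that were searched in capitals. Each run is the 150 bases before the annotated start, 5′ to 3′, from H1f5 (chr13:21780626-21780775, minus strand), H2ac22 (chr13:21787249-21787398, minus strand), H2bc14 (chr13:21721894-21722043, plus strand), H3c10 (chr13:21717478-21717627, plus strand) and H4c12 (chr13:21750554-21750703, minus strand), and these positions are not comparable with the mm9 positions of the peaks. Capitals mark AAACACA and TATAAA in the H1 promoter, CCAAT and TATAAA in the H2A and H3 promoters, ATTTGCAT and CCAAT in the H2B promoter, and GGTCCG and TATAAA in the H4 promoter, on either strand. For each class the first gene along the chromosome with both motifs was taken.
H1f5: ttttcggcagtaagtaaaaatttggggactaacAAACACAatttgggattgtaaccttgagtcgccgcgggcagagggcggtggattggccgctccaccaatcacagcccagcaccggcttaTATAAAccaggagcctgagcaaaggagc
H2ac22: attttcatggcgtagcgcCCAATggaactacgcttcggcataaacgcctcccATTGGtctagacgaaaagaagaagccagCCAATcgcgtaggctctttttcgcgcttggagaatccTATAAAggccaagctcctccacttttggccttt
H2bc14: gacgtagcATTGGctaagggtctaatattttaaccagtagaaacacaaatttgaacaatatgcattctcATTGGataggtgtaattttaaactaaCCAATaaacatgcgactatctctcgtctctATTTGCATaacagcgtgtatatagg
H3c10: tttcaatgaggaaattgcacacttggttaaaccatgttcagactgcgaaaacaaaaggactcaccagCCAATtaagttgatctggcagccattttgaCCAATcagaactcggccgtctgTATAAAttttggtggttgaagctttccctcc
H4c12: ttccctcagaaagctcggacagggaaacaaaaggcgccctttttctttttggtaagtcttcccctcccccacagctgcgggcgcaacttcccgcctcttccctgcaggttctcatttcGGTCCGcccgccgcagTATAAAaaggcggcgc

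The TATA box sequence TATAAA, the element that TBP contacts, stood in 21 of the 50 histone promoters (42%), against 8.02% of the 26975 other promoters in the table. On the sense strand it occurred in 19 of them, and in 10 of these it began 20 to 40 bases before the start. CCAAT, the sequence bound by the factor NF-Y, was in 84% of the histone promoters, against 25.2% of the others, and in every H1, H2A, H2B and H3 promoter tested but in 3 of 11 H4 promoters. The octamer ATTTGCAT was in 4 of 13 H2B and 4 of 13 H2A promoters, against 0.997% of the other promoters, and in none of the H1, H3 and H4 promoters. The H1 element AAACACA was in 5 of 6 H1 promoters, against 3.47% of the others. The H4 element GGTCCG was in 8 of 11 H4 promoters, against 4.50% of the others. Both strands were searched in the same 150 bases, none of the 5 motifs contains another, and a match is a description of these letters only. 1 pair, H4c17 and H4c18, was identical over the 150 bases, and no other pair reached 90% identity.

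Peaks of the transcription machinery were packed far more densely in the windows than on the rest of chromosome 13, and H3K36me3 had 1 peak in them. Total Pol II had 106 peaks in the windows, 41 in window 1 and 65 in window 2, against 571 on the rest of the chromosome. That was 17.4 peaks per 100 kb in the windows, against 0.490 on the rest, a ratio of 35.5 (95% interval 28.5 to 43.7). The number of peaks per kb was higher in the windows for 13 of the 16 lists and lower for 1, where a list was called when the exact conditional 95% interval of its ratio left out 1.

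**Figure D1:**
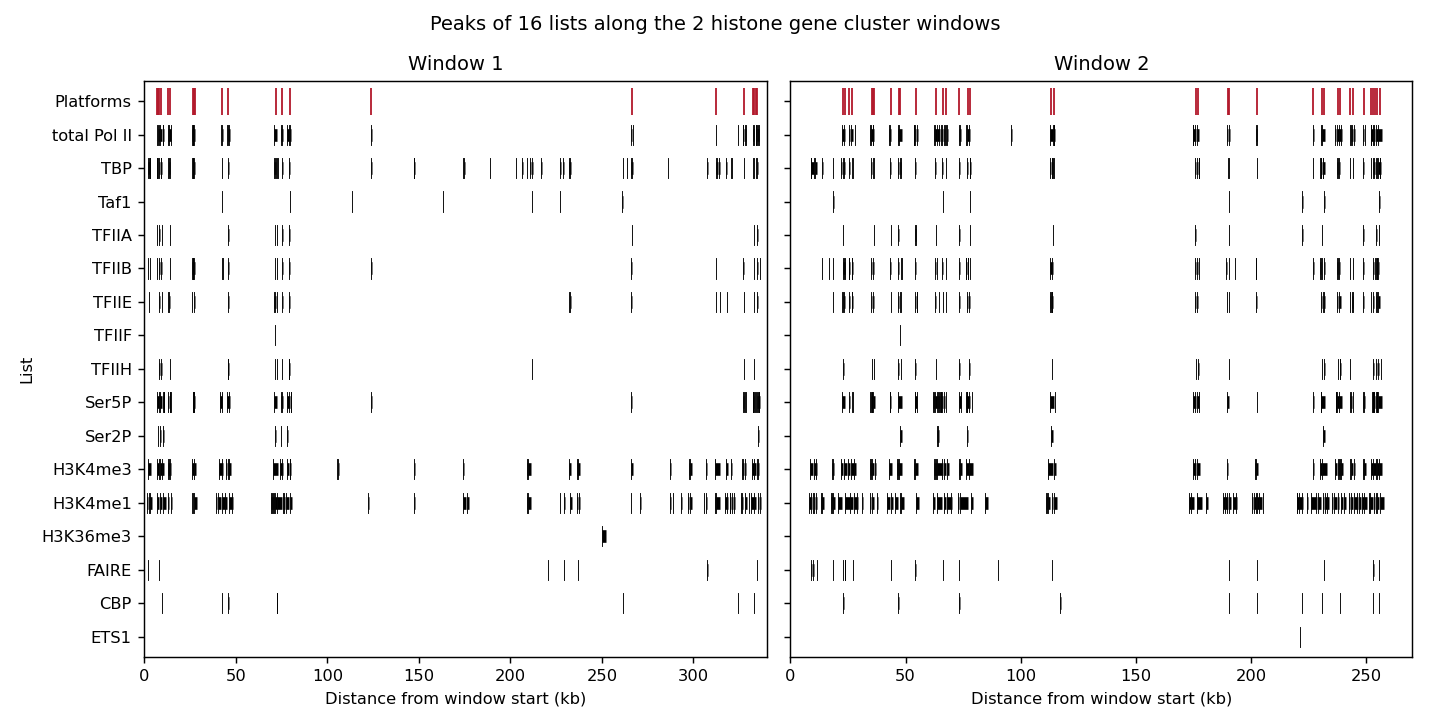
Peaks of the 16 lists (rows, black) and platforms (top row, red) along window 1 (left) and window 2 (right), by distance in kb from the start of each window. Pol II, TFIIB, TFIIE and Ser5P peaks line up in the same clumps, TBP peaks also fill the platform-free stretch of window 1, and H3K36me3 and ETS1 have 1 peak each.

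Among the general factors the density ratio was 33.5 for TBP (27.3 to 40.7), 34.3 for TFIIB (26.6 to 43.8) and 28.4 for TFIIE (21.7 to 36.7). TFIIA, which steadies TBP on DNA, stood at 19.8 (13.0 to 29.1), and TFIIH at 18.7 (13.0 to 26.2). Taf1, the largest subunit of TFIID, stood lower, at 3.93 (2.14 to 6.64), with 14 peaks in the windows against 681 on the rest. The interval of Taf1 did not meet those of the other 5. TFIIF had 2 window peaks against 47, and its ratio of 8.13 (0.957 to 31.0) was not called.

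The phosphorylated forms of Pol II had larger ratios to the rest, though not more peaks per kb in the windows than total Pol II (17.2 per 100 kb for Ser5P and 2.13 for Ser2P). Ser5P had 105 peaks in the windows against 399 on the rest, a ratio of 50.3 (40.2 to 62.5), whose interval overlaps that of total Pol II. Ser2P had 13 peaks in the windows against 45 on the rest, a ratio of 55.2 (27.3 to 104), whose interval spans that of total Pol II. Against all autosomes the ratio was 28.9 for Ser2P, below TBP at 31.0, with 40.0 for Ser5P and 23.7 for total Pol II. The marks of promoters and enhancers followed at lower ratios, 18.2 for H3K4me3 (102 peaks in the windows against 1070) and 8.33 for H3K4me1 (147 against 3373). FAIRE stood at 12.4 (26 peaks against 401) and CBP, an acetyltransferase that serves as a coactivator, at 12.9 (19 peaks against 282).

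H3K36me3, the mark that follows elongating Pol II, was the list called lower, with 1 peak in the windows against 2162 on the rest and a ratio of 0.0884 (0.00224 to 0.493). That peak, at chr13:22050201-22052250, was 2050 bp wide and overlapped no peak of the other lists. Among the 50% of peaks with the largest areas the H3K36me3 ratio was 0.186 and no longer called. ETS1, a factor of the lymphoid lineage, had 1 peak in the windows against 123 on the rest, a ratio of 1.55 (0.0390 to 8.82) that was not called.

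**Figure D2:**
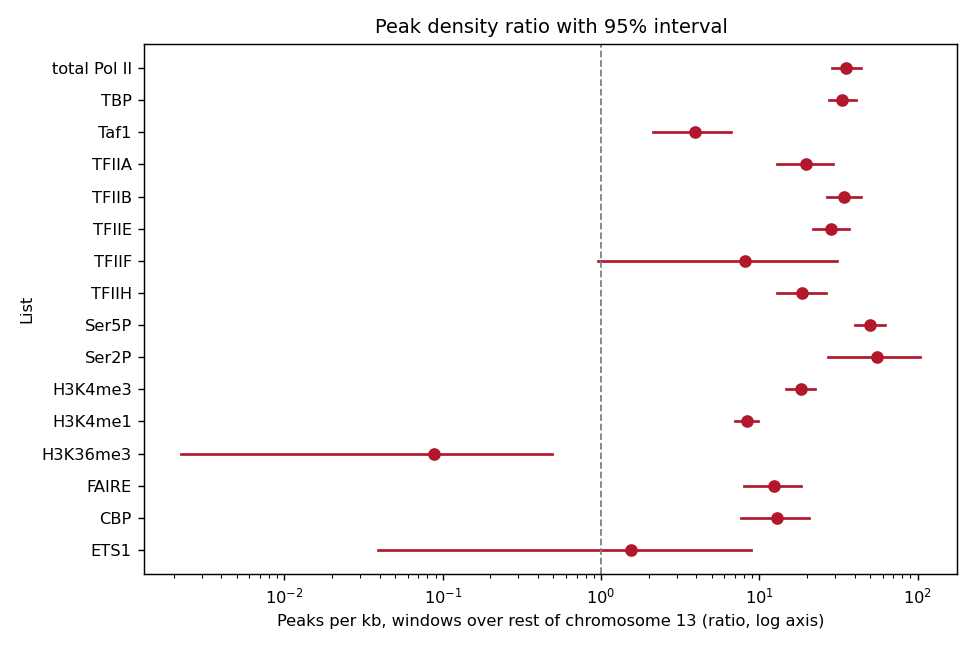
Ratio of peaks per kb, windows over the rest of chromosome 13, for each list (points) with its 95% interval (lines) on a log axis, where the dashed line marks a ratio of 1. Ser2P (55.2) and Ser5P (50.3) lie farthest right, and H3K36me3 (0.0884) is the only list whose whole interval lies left of 1.

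A platform, meaning a total Pol II peak and a TBP peak that overlap, taken as 1 region, stood for a site where both were found. The windows held 59 platforms, 22 in window 1 and 37 in window 2, against 325 on the rest of chromosome 13. Their density was 34.7 times that of the rest (25.8 to 45.9), and 49.2 times that of the 229 platforms on the rest that overlapped an H3K4me3 peak (36.3 to 65.8). The interval between the windows, 1460 kb long, held 5 platforms.

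The platforms of the windows were wider and closer together than the others. Their median width was 500 bp (quartiles 350 and 595), against 220 bp on the rest (140 and 320) and 270 bp for the H3K4me3-marked rest. Widths of 1 kb or more occurred in 7 of 59 window platforms, against 2 of 325. Centres of neighbouring platforms were a median of 3.26 kb apart in the windows (0.875 and 7.41 kb), against 144 kb on the rest (21.6 and 504 kb). Of the 57 spacings in the windows, 19 were below 1 kb, 26 lay between 1 and 10 kb and 12 were 10 kb or more. A neighbour within 1 kb was found for 32 of 59 window platforms (54.2%), against 19.7% on the rest, a difference of 34.5 percentage points (21.1 to 47.2).

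**Figure D3:**
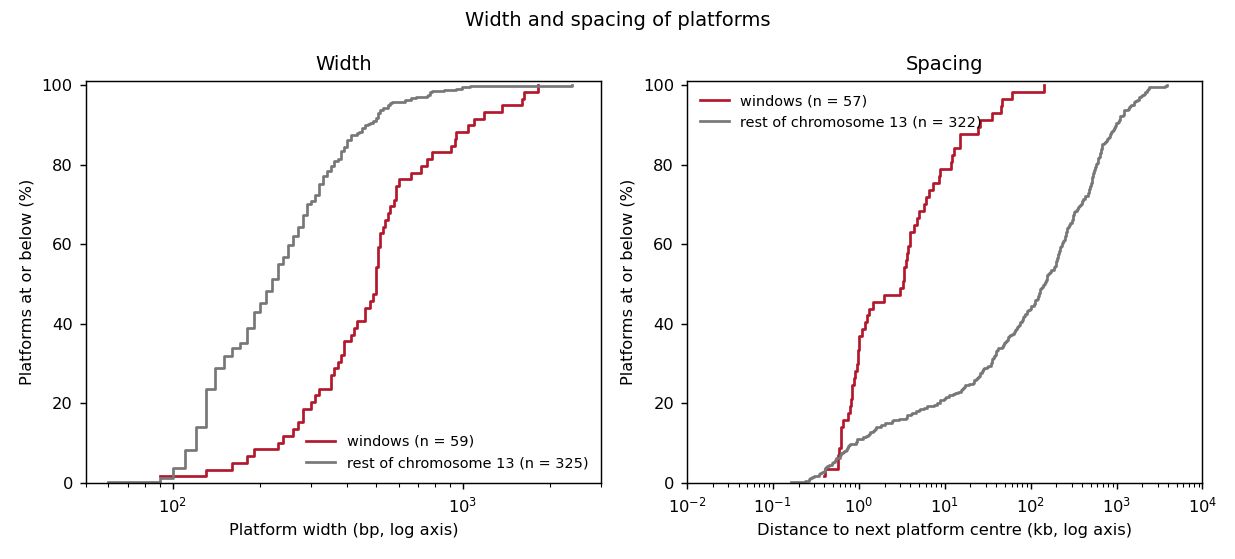
Share of platforms at or below a given width in bp (left) and a given distance to the next platform in kb (right), for the windows (red) and the rest of chromosome 13 (grey), on log axes. The median width is 500 bp in the windows and 220 bp on the rest, and the median spacing is 3.26 kb in the windows and 144 kb on the rest.

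The 3 closest pairs were chr13:23635081-23635670 with chr13:23635681-23635860, the second of these with chr13:23635921-23636440, and chr13:21826631-21827060 with chr13:21827231-21827610. Their centres lay 395, 410 and 575 bp apart, with 10, 60 and 170 bases between the platforms. In the group of 3 the outer platforms carried TFIIB, TFIIE and TFIIH while the middle one, 180 bp wide, carried no general factor besides TBP. The 6 widest platforms were chr13:21870841-21872650 (1810 bp), chr13:23854951-23856580 (1630 bp), chr13:23712521-23714120 (1600 bp), chr13:23830871-23832230 (1360 bp), chr13:23647181-23648360 (1180 bp) and chr13:23776441-23777530 (1090 bp). The first is in window 1 and the other 5 are in window 2, and the 1810, 1600, 1360 and 1180 bp platforms also carried Ser2P.

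At each platform the 6 general factors other than TBP (TFIIA, TFIIB, TFIIE, TFIIF, TFIIH and the TFIID subunit Taf1) were looked up, and the window platforms carried more of them. The mean was 2.75 of the 6 in the windows (SD 1.48 over 59 platforms), against 1.95 on the rest (SD 1.39 over 325) and 1.69 on the H3K4me3-marked rest. At least 4 were present at 23 window platforms (39.0%), against 15.7% of the rest, a difference of 23.3 percentage points (11.1 to 36.5). Against the H3K4me3-marked rest, where 9.61% had 4 or more, the difference was 29.4 points (17.1 to 42.5). Width differed between these groups as well. Against the 56 platforms on the rest whose widths lay between the quartiles of the window platforms, the means were 2.75 in the windows and 2.52 on the rest, and 23 window platforms had 4 or more against 12 (21.4%). Those 56 are the rest of like width below. All 59 window platforms were kept unless both sides are said to be limited, so median widths were 500 bp against 410 bp.

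TFIIB was the factor found most often. It was present at 51 of 59 window platforms (86.4%), against 48.9% of the rest and 65.1% of the H3K4me3-marked rest. TFIIE was at 47 (79.7%), against 58.2% of the rest and 57.2% of the marked rest. Both differences were called in both comparisons, at 37.5 and 21.5 points against the rest. They were not called among platforms of like width, where the rest stood at 83.9% for TFIIB and 75% for TFIIE.

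TFIIH, the kinase and helicase complex, was the general factor called higher against the rest of like width. It was at 30 window platforms (50.8%), against 32% of the rest and 17.5% of the marked rest, differences of 18.8 points (5.37 to 32.1) and 33.4 points (19.8 to 46.4). Against the rest of like width, at 30.4%, the TFIIH difference was 20.5 points (2.53 to 36.6). TFIIA was at 25 window platforms (42.4%), against 20.9% of the rest and 13.5% of the marked rest, differences of 21.4 points (8.77 to 34.8) and 28.8 points (16.04 to 42.1). Against the rest of like width, at 28.6%, the TFIIA difference of 13.8 points (-3.66 to 30.1) was not called, and with the window platforms held to the same widths as well it was 24.8 points (3.27 to 44.1).

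Taf1 was at 7 window platforms (11.9%), against 28% of the rest, a difference of -16.1 points (-24.0 to -4.53), and 12.7% of the marked rest, which was not called. Against the rest of like width the Taf1 difference was -16.7 points (-30.9 to -1.99), and with both sides held to those widths it was -11.9 points and not called. The Taf1 call against the rest also ended in window 1 alone (-18.9 points), in window 2 alone (-14.5), against all autosomes (-9.83), among the 50% of peaks with the largest areas (-5.75), with platforms built from Ser5P and TBP (-5.80) and with the factor lists cut to the length of the shortest (-5.54). TFIIF was at 2 window platforms (3.39%), against 6.77% of the rest and 2.62% of the marked rest, and neither difference was called. The TFIIF list was the shortest of the general factors, with 1262 peaks in the series. Its 2 window peaks, chr13:23647561-23647650 and chr13:21871231-21871280, both lay in platforms that carried Ser2P.

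The commonest combination at the window platforms was TFIIA, TFIIB, TFIIE and TFIIH together without Taf1 or TFIIF. It was found at 16 of 59 window platforms (27.1%), against 2.77% of the rest and 3.93% of the H3K4me3-marked rest. Among the rest of like width it was found at 5 of 56 platforms (8.93%). The set was picked because it led in the windows, so these shares are a description. Next came TFIIB with TFIIE alone, at 10 window platforms (16.9%), against 19.1% of the rest. Within the windows the 25 platforms with TFIIA all carried TFIIB and TFIIE, and 21 of them (84%) carried TFIIH, against 9 of the 34 without TFIIA (26.5%). The platforms with TFIIA were also wider, with a median of 520 bp against 410 bp. The same split was not made on the rest.

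A total of 5 factors, the highest number in the windows, was found at chr13:21870841-21872650, chr13:21879031-21879540, chr13:23677661-23678070, chr13:23790161-23790710 and chr13:23854951-23856580. At the first, TFIIF was the fifth factor beside TFIIA, TFIIB, TFIIE and TFIIH, and at the other 4 it was Taf1. No general factor besides TBP was found at 6 window platforms (10.2%), against 17.2% of the rest. TFIIA, TFIIB, TFIIE and TFIIH lay nearer to TBP in the windows than on the H3K4me3-marked rest, by their medians, and Taf1 and TFIIF did not. TFIIB centres were a median of 15 bp from TBP centres in the windows, against 35 bp on the H3K4me3-marked rest, TFIIE centres 20 bp against 45 bp, TFIIA centres 30 bp against 50 bp, and TFIIH centres 50 bp against 80 bp. Taf1 centres lay 105 bp from TBP at 7 window platforms, against 100 bp at 29 on the marked rest. The 2 TFIIF centres lay a median of 812 bp from the TBP peak of highest area in their platforms, against 45 bp at 6 on the marked rest. Those 2 platforms, 1810 and 1180 bp wide, each held more than 1 TBP peak. The TFIIF peak chr13:21871231-21871280 itself overlapped a TBP peak, and the other TFIIF peak overlapped none. These distances were not tested.

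**Figure D4:**
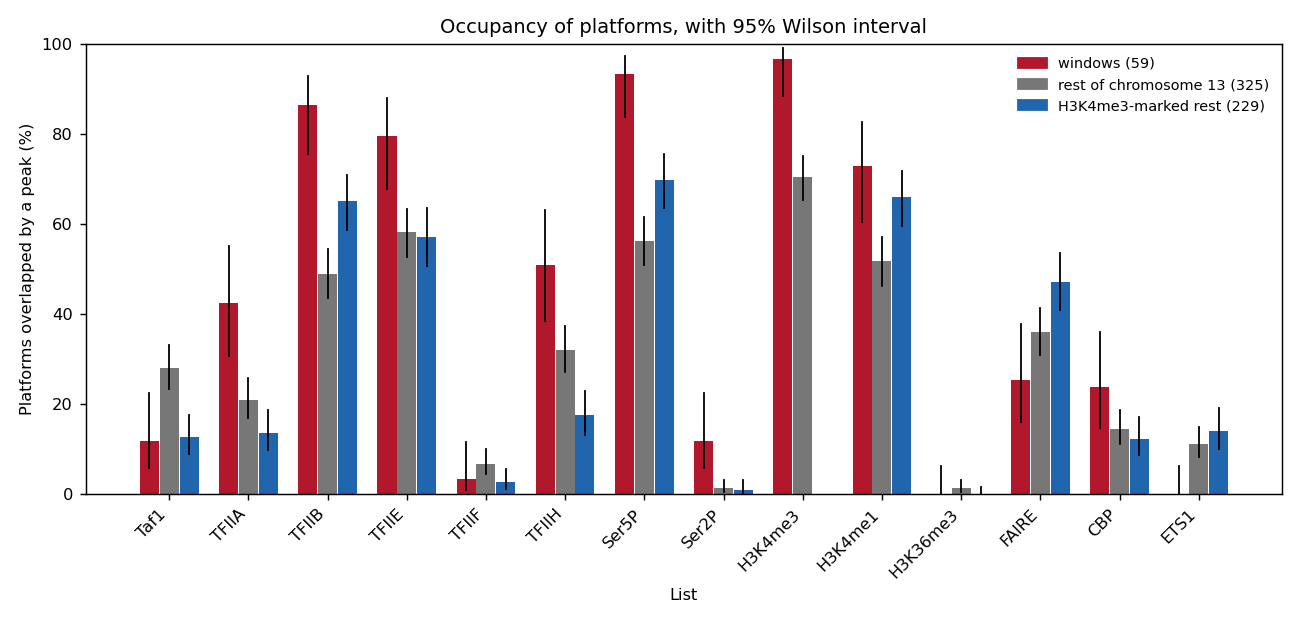
Share of platforms overlapped by a peak of each list, with Wilson 95% intervals, for the windows (red), the rest of chromosome 13 (grey) and the H3K4me3-marked rest (blue; not drawn for H3K4me3, where it is fixed by the choice). TFIIA, TFIIB, TFIIE, TFIIH, Ser5P, Ser2P, H3K4me3, H3K4me1 and CBP are highest in the windows, not all by a called amount. FAIRE, ETS1 and Taf1 are lowest there, with Taf1 close to the H3K4me3-marked rest.

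Nearly every window platform carried Pol II phosphorylated on serine 5, the form found near starts. Ser5P was at 55 of 59 window platforms (93.2%), against 56.3% of the rest and 69.9% of the H3K4me3-marked rest. Ser5P was thus more frequent in the windows by 36.9 points (26.1 to 43.7) against the rest and by 23.4 points (12.4 to 30.8) against the marked rest. Among the rest of like width 92.9% carried Ser5P, and the difference of 0.363 points was not called. The centre of Ser5P lay a median of 100 bp from that of TBP in the windows, against 50 bp on the marked rest.

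Ser2P, the form of elongating Pol II, was found at 7 window platforms (11.9%), against 1.23% of the rest and 0.873% of the marked rest, differences of 10.6 points (4.35 to 21.3) and 11.0 points (4.58 to 21.7). These 7 platforms had a median width of 1180 bp, against 485 bp for the other 52. Among platforms on the rest of like width 3.57% carried Ser2P, and the difference was not called. None of the 7 window platforms with Ser2P had a width between the quartiles used there, so that comparison does not match them in width. With both sides held to those widths Ser2P was at 0 of 30 window platforms, against 3.57%, which was not called either.

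The Ser2P peaks of the windows lay in another setting than those of the rest. All 13 overlapped a total Pol II peak, against 13.3% of the 45 on the rest. All 13 also overlapped Ser5P, against 6.67%, H3K4me3, against 8.89%, and H3K4me1, against 22.2%. None of the 13 overlapped H3K36me3, against 37.8% on the rest, a difference of -37.8 points (-52.4 to -11.7). These shares were not corrected for how much of each part a list covered, so they partly restate the densities above. H3K36me3, with 1 window peak, covered 0.336% of the windows against 3.77% of the rest. Total Pol II covered 7.37% against 0.0858%, Ser5P 6.91% against 0.0552%, H3K4me3 13.8% against 0.762% and H3K4me1 20.2% against 2.59%. The 3 of highest area were chr13:23831111-23832230, chr13:23647371-23648520 and chr13:23713121-23713960, all in window 2, and they were also the 3 of highest area on the chromosome. The window peaks had a median width of 510 bp, against 270 bp on the rest.

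No window platform overlapped H3K36me3 (0 of 59, Wilson upper limit 6.11%), against 1.23% of the rest and 0% of the H3K4me3-marked rest. Platforms seldom carried it anywhere, so distances are given as well. The nearest H3K36me3 peak was a median of 188 kb from a window platform, with a range of 13.9 to 340 kb, against 10.6 kb for the H3K4me3-marked rest (quartiles 4.01 and 35.5 kb). The nearest Ser2P peak was a median of 6.03 kb from a window platform, against 787 kb for the marked rest.

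H3K4me3 marked 57 of the 59 window platforms (96.6%), against 70.5% of the rest, a difference of 26.1 points (16.7 to 31.9) that was not called among platforms of like width (98.2% on the rest). Only 2 window platforms lacked it. One, chr13:21923921-21924150, carried TFIIB and Ser5P and neither H3K4 mark. The other, chr13:23790161-23790710, carried H3K4me1, Ser5P, FAIRE and 5 general factors, and it held the CBP peak of highest area in the windows, chr13:23790231-23790440, which ranked 8 among the 301 CBP peaks of the chromosome. On the rest of the chromosome 24.3% of platforms carried neither mark and 5.23% carried H3K4me1 alone.

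H3K4me1 was at 43 window platforms (72.9%), against 51.7% of the rest, which was called, and 65.9% of the marked rest, which was not. Against the rest of like width the H3K4me1 difference was 3.24 points and not called. The widest H3K4me3 peaks of the windows were 2900 bp at chr13:21870191-21873090, 2810 bp at chr13:22111581-22114390 and 2390 bp at chr13:23711761-23714150. The peaks of 2900 and 2390 bp overlapped the platforms of 1810 and 1600 bp.

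FAIRE and ETS1 were less frequent at the window platforms than at other marked promoters. FAIRE was at 15 window platforms (25.4%), against 36% of the rest, which was not called, and 47.2% of the H3K4me3-marked rest, a difference of -21.7 points (-33.1 to -7.82). At like width the rest stood at 55.4% and the difference was -29.9 points (-45.4 to -12.0). In window 2 alone the FAIRE difference against the marked rest was -12.0 points and not called. ETS1 was at none of the 59, against 11.1% of the rest and 14% of the marked rest, a difference of -14.0 points (-19.1 to -6.72) against the marked rest. In window 1 alone, with 22 platforms, that ETS1 difference was not called. Its only window peak, chr13:23821231-23821270, was 40 bp wide and overlapped H3K4me1 alone. CBP was at 14 window platforms (23.7%), against 14.5% of the rest, which was not called, and 12.2% of the marked rest, a difference of 11.5 points (1.24 to 24.3). At like width CBP was at 21.4% of the rest and was not called.

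By area the window peaks of Pol II, TBP, TFIIA, TFIIB, TFIIE, TFIIH, Ser5P and Ser2P ranked high in their own lists, while those of Taf1, the H3K4 marks and FAIRE were of middling rank. The area of a peak is the authors' value, and it was used only to rank peaks within a list. Of the 868 window peaks 98 (11.3%) were in the top 1% of their list over the whole series, against 0.711% of the 11388 peaks on the rest of chromosome 13. TFIIB had 25 such peaks and Ser5P had 18, and Taf1, TFIIF, Ser2P, the 3 histone marks, FAIRE, CBP and ETS1 had 0. All 10 of the chromosome's TFIIB, TFIIE and Ser5P peaks of highest area lay in the windows.

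The median window peak had an area above 93.2% of the chromosome's peaks for TFIIA, 89.8% for TFIIE, 88.8% for TFIIB, 86.5% for total Pol II and 84.7% for TBP. It stood above 82.2% for TFIIH, 80.0% for Ser5P and 82.8% for Ser2P. The TFIIH median was 90.1% in window 2 alone and 47.5% in window 1 alone. Taf1 stood at 66.3% and TFIIF, with its 2 peaks, at 21.4%, beside 63.3% for H3K4me1. For H3K4me3 the median window peak stood above 46.4%, and for FAIRE above 40.3%. Area is summed over a peak, so wide peaks can rank high through width. Median widths in the windows and on the rest were 380 and 130 bp for total Pol II. They were 250 and 110 bp for TBP, and 290 and 130 bp for Ser5P, while TFIIF, FAIRE and ETS1 peaks were narrower in the windows. With area divided by width, an alternative added after seeing the data, the medians were 89.0% for TFIIA, 87.1% for TFIIB and 41.2% for H3K4me3.

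**Figure D5:**
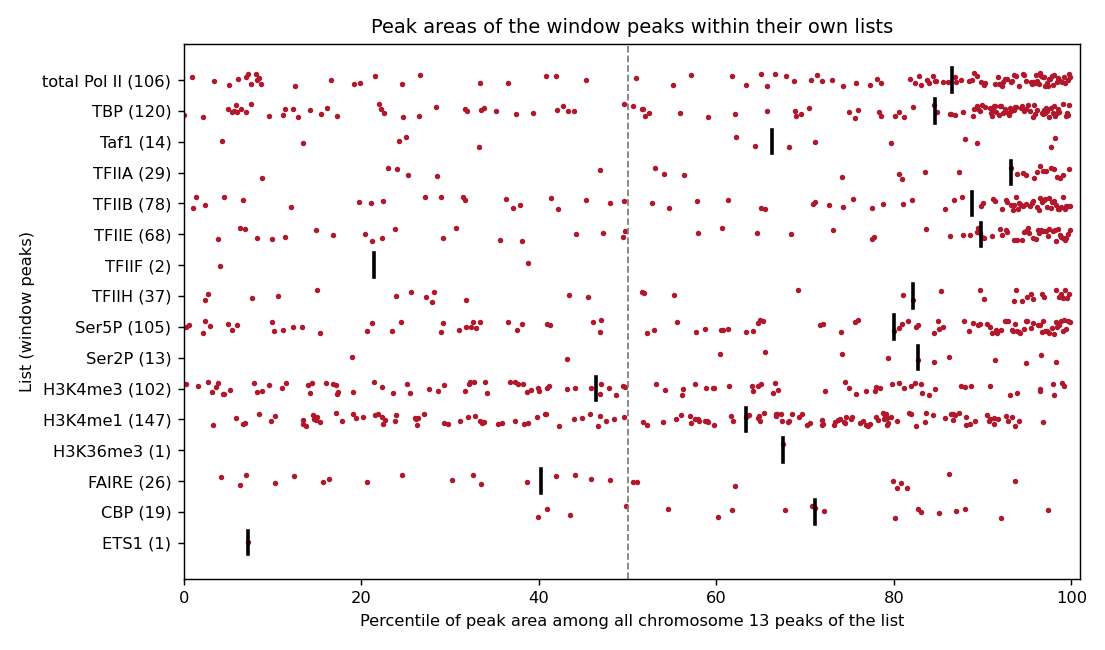
Percentile of each window peak's area among all chromosome 13 peaks of its list (points, spread up and down for legibility), with the median as a black bar and the 50th percentile dashed. The medians of TFIIA (93.2), TFIIE (89.8) and TFIIB (88.8) lie far right of those of H3K4me3 (46.4) and FAIRE (40.3).

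The 3 Ser5P peaks of highest area in the whole series, of 10644, were all in window 2, at chr13:23646751-23648400, chr13:23830511-23832120 and chr13:23712571-23714590. Each overlapped total Pol II, TBP, TFIIA, TFIIB, TFIIE, TFIIH, Ser2P and H3K4me3. The TFIIA peak of highest area of 6588 was at chr13:23854151-23854500, also in window 2. The highest peaks of the windows for TFIIB and TFIIE shared one site, at chr13:23622721-23623080 and chr13:23622641-23623080, and ranked 9 of 10999 and 17 of 11678. The highest TFIIH peak, chr13:23646741-23647060, ranked 24 of 8618 and lay in the site of the highest Ser5P peak. The highest total Pol II peak, chr13:21870841-21872630, ranked 21 of 18037.

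TBP was not always with Pol II. Of the 120 TBP peaks in the windows 40 (33.3%) overlapped no Pol II peak, against 48.9% on the rest, a difference of -15.6 points (-24.2 to -5.98). Of these 40, 31 were among the 60 TBP peaks of window 1 and 9 among the 60 of window 2. The lower share thus came from window 2, and in window 1 the share was not below that of the rest. Of the 40, 36 lay more than 500 bp from any Pol II peak. The TBP peak of highest area in the windows, chr13:23608881-23610270, was one of the 40. It was 1390 bp wide, ranked 7 of 15651 in the series and overlapped H3K4me3, H3K4me1 and FAIRE.

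The TBP peaks without Pol II carried the rest of the Pol II machinery less often than those with it, and for most lists their shares did not differ by a called amount from those of the 335 TBP peaks without Pol II on the rest. TFIIA was at 0 of 40, against 27 of the 80 window TBP peaks with Pol II (33.8%), and TFIIH at 0 of 40, against 33 of 80 (41.2%). Ser5P was at 1 of 40 (2.50%), against 72 of 80 (90%), and TFIIB at 6 of 40 (15%), against 56 of 80 (70%). Ser5P is a form of Pol II, and 92 of the 105 window Ser5P peaks overlapped total Pol II. The Ser5P contrast was therefore largely fixed by the split. H3K4me3 was at 25 of 40 (62.5%), against 77 of 80 (96.2%), and H3K4me1 at 27 of 40 (67.5%), against 55 of 80 (68.8%). Among the 335 on the rest TFIIB was at 14.9%, TFIIA at 4.18%, Ser5P at 11.9% and H3K4me3 at 54.9%, and none of these 4 differed from the windows by a called amount. TFIIH, at 0 of 40 against 11.6%, was called lower, and H3K4me1, against 47.5%, was called higher by 20.0 points (3.66 to 33.5). By area the 31 such peaks of window 1 had a median rank of 1614 of 15651 and a median width of 210 bp, while the 9 of window 2 had a median rank of 10273 and a median width of 100 bp, against 10198 and 100 bp for the 335 TBP peaks without Pol II on the rest.

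The longest platform-free stretch of window 1, chr13:21924151-22066110, was 142 kb long and held 18 TBP peaks and 0 Pol II peaks, with 7 H3K4me3 peaks. Its 1 TFIIB peak and 1 Ser5P peak reached in from the platform at its edge, chr13:21923921-21924150. Peaks of Taf1, TFIIE, TFIIH, CBP, FAIRE, H3K4me1 and H3K36me3 also lay in it. Among them were the Taf1 peaks chr13:22061251-22061420 and chr13:22027091-22027250, which ranked 13 and 16 of 695 on the chromosome. The 1460 kb between the windows had 44 TBP peaks, 39 of them without Pol II, and 8 Pol II peaks. In the gene order above, tRNA genes, which are transcribed by RNA polymerase III with the help of TBP, lie in the run from H2bc13 to H2bc11 and between the runs. Whether these TBP peaks lie on tRNA genes was not tested, since no annotation of the build of the peaks was used here.

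The 2 windows resembled each other in most shares, though window 2 had more platforms per kb. Window 2 had 13.7 platforms per 100 kb, against 6.47 in window 1. TFIIH was at 21 of 37 platforms in window 2 and 9 of 22 in window 1, TFIIA at 15 and 10, and TFIIE at 32 and 15, and none of these differences was called. Of the 14 lists the difference was called for 1. FAIRE was at 13 of 37 platforms in window 2 (35.1%), against 2 of 22 in window 1 (9.09%), a difference of 26.0 points (3.07 to 43.4).

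Some of these calls also ended under other settings. In window 1 alone the differences against the rest were 10.0 points for TFIIE, 8.91 for TFIIH, 11.9 for H3K4me1 and -11.1 for ETS1. None of these was called. Against the marked rest, window 1 alone gave 16.8 points for TFIIB, 11.0 for TFIIE and 10.5 for CBP, also without a call. With every total Pol II peak taken as a platform, the differences against the rest were 3.60 points for TFIIE and 4.66 points for TFIIH. There TFIIB stood 5.15 points and CBP 5.73 points above the marked rest, and none of these was called. Among the 50% of peaks with the largest areas the H3K4me3 difference against the rest was -10.9 points. The H3K4me1 difference there was 0.5 points and not called.

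Shares carry Wilson intervals and their differences Newcombe intervals, which cover counting error only, take neighbouring platforms as independent, and were not adjusted for the number of lists. Near-identical gene copies can lose or share reads depending on how reads that match several places were mapped, and that step is not given in the sources used here.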

How the data were processed

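Each deposited list gives peaks by position and area, and the area is a signal: the authors' track summed over the peak, as the file names state. Per the names of the deposited files, replicates had been merged for 13 lists, and CBP, Taf1 and TFIIB came from 1 replicate each. Coordinates are in mm9, per the submitters' processing notes. Which aligner, caller and threshold were used, and how many reads, is not given in the sources used here. The windows, lists and tests were chosen with earlier results of these data known.

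Overlap meant at least 1 bp. Density ratios carry exact conditional (Clopper-Pearson) 95% intervals. Of a list's peaks, the percentile is the share on chromosome 13 with a smaller area. Regions named are platforms lacking H3K4me3, the 6 widest platforms, those with most general factors, the 3 closest pairs, and the peaks of highest area and the widest histone mark peaks. The alternatives covered the windows, the rest used, the share of each list kept by area, platforms, overlap, list length and width. RefSeq (GRCm38.p6) gave names, neighbours and promoters. The tools were pandas 2.3.3, scipy 1.17.1, matplotlib 3.10.9 and numpy 2.4.6 under Python 3.11.15. The interval and overlap code was tested on simulated data.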

Additional observations from a re-analysis of the deposited data

How the results depend on the processing

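No paired analysis was possible because each target has 1 list. Under 14 alternatives, 384 of 445 ratios and differences for single lists counted as keeping their call, and 21 of these, all uncalled, changed direction or reached 0. The 384 include values that could not lose a call. Taking only peaks fully inside the windows left every value unchanged. Covered length gave ratios without intervals, so these had no call of their own and called lists were judged by direction alone. With the rest limited to the middle 50% of window platform widths, 1 list had higher occupancy against either rest, in place of 8 and 7, and the H3K4me3 difference was -1.60 points. The difference in mean number of general factors, 0.798 and 1.06 against the rest and the H3K4me3-marked rest, was then 0.228 and 0.182. That setting for the factor number, and limiting both sides, were added after seeing the data. With both sides limited, 2 lists were higher against either rest, the factor differences were 0.349 and 0.303, Ser2P stood at -3.57 and -3.64 points, H3K4me3 at -1.55 and H3K4me1 at -9.64. Window 1 alone had 22 platforms, with 5 and 4 lists higher and 1 and 1 lower. Window 2 alone had 37 platforms, with 1 and 1 lower. Against all autosomes the ratio of median spacings was 20.7 in place of 44.3, with 1 list lower, as it was with factor lists cut to the shortest. In the upper 50% of every list 0 lists had lower density, the factor difference was 1.21 and H3K4me3 stood at -10.9 points. Platforms from total Pol II alone numbered 106, with factor differences of 0.179 and 0.398. The cause of these changes was not tested. Depth could not be assessed, and peaks just under the authors' threshold cannot be seen.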
